A study of Homo sapiens with 48 samples.

Results

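Tumours of the lymphoma line U2932 that stably expressed NOTCH2(S2156A), a receptor in which the serine that the name gives is replaced by alanine, were compared with tumours of the same line that stably expressed NOTCH2(WT). The 6 libraries were taken by their titles, 3 titled S2156A and 3 titled WT, out of 48 libraries in all. All gene rows of these libraries were taken except those named as dates or 0. Rows that passed a filter on low values were tested. Libraries of NOTCH2(R2400*) and NOTCH2(Q2140*) tumours, 3 of each, entered the same fit as further groups. U2932 is an established human cell line of diffuse large B-cell lymphoma. All 12 tumours grew as xenografts in NSG mice, which lack their own T, B and NK cells, and all mice received CHOP, the combination of cyclophosphamide, doxorubicin, vincristine and prednisone. Tumours were taken at a volume of 1 cm3. No untreated tumour enters the comparison. The sources used here do not give the age or sex of the mice, the promoter that drove the receptor or whether each line was a clone or a pool.

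NOTCH2 is a surface receptor of mature B cells. After a ligand of the Delta or Jagged family binds it, proteases release its intracellular domain, which enters the nucleus and joins RBPJ and a Mastermind protein at target genes such as the HES and HEY repressors. The C-terminal end of that domain carries a PEST region that limits how long it lasts, and truncations that remove this end recur in B-cell lymphomas. KLHL6 is a B-cell adaptor of a cullin-3 ubiquitin ligase that the study deleted in its other experiments.

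All 3 altered residues lie in the last exon of NOTCH2, exon 34 of 34, on the minus strand of chromosome 1 (GRCh38, GENCODE 29 coding sequence of 2470 codons). The S2156A codon is TCT at chr1:119916254-119916256, and 314 codons follow it. The Q2140* codon is CAA at chr1:119916302-119916304, with 330 codons after it, and the R2400* codon is CGA at chr1:119915522-119915524, with 70 codons after it. The reference stretches are printed because they place the substituted serine between the positions of the labelled truncations, and capitals mark the altered codons. The base change that was introduced is not given in the sources used here.
NOTCH2 codons 2135 to 2162, with the Q2140* and S2156A codons in capitals (chr1:119916236-119916319): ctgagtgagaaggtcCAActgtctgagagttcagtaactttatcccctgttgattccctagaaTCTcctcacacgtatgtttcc
NOTCH2 codons 2394 to 2406, with the R2400* codon in capitals (chr1:119915504-119915542): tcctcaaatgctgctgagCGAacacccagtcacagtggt

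RNA was measured by poly(A) sequencing. The depth was 13446216 to 15107081 reads in S2156A libraries and 15349133 to 17090768 reads in WT libraries. Values are normalised read counts, that is, reads divided by the size factor of the library. Changes are log2 differences of value + 2 between group means, ± SE from limma, with 3 libraries a group, and a gene is called higher or lower at a Benjamini-Hochberg adjusted p under 0.05 over 15354 tested genes. Replicates differed little, with a chi-square over its degrees of freedom of 1.33 to 1.96 between S2156A libraries and 1.74 to 2.99 between WT libraries, where 1 is counting noise alone. The same ratio was 3.36 to 4.83 between R2400* libraries and 2.54 to 7.37 between Q2140* libraries. The SE and p-values come from the fit of all groups, so they also carry the spread of these truncation groups. Whether replicates came from separate animals is not given beyond their labels as biological replicates, so p-values measure the spread between the samples in the fit.

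NOTCH2 RNA, the transcript that carries the substitution, did not pass the test between S2156A and WT tumours. It stood at 15505, 17569 and 16875 normalised reads in S2156A tumours and at 15989, 15237 and 16347 in WT tumours. The groups overlapped, and the log2 difference was 0.07 ± 0.07 (adjusted p = 0.59, limma). Reads of the introduced and the cells' own NOTCH2 cannot be told apart in these files, and a serine substitution cannot be seen in gene totals, so the transcript level does not check the labels. The row of the paralogue NOTCH2NL is listed at 0 in all 6 libraries. KLHL6 RNA stood at 15711, 15937 and 16091 in S2156A tumours and at 17890, 15452 and 17699 in WT tumours. Its groups overlapped too, with a difference of -0.09 ± 0.07 (adjusted p = 0.43). WT tumours of the KLHL6 knockout experiment described below belong to a separately normalised set. They had 420 to 909 normalised reads of NOTCH2 and 3478 to 4856 of KLHL6, both below the NOTCH2(WT) tumours here. The reason for this gap between the 2 sets of WT tumours was not tested.

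Among the other receptors and the ligands, NOTCH1 RNA rose in S2156A tumours and no other tested member was called. Across all genes, 2333 of 15354 (15.2%) were called, 1096 higher (7.14%) and 1237 lower (8.06%). NOTCH1 had 482, 516 and 502 normalised reads in S2156A tumours and 341, 356 and 351 in WT tumours. Every S2156A library lay above every WT library, at a difference of 0.51 ± 0.08 (adjusted p = 1.7e-05), and all alternatives kept the call. NOTCH4, a receptor best known from endothelium, and the ligands DLL3, DLL4, JAG1 and JAG2 had adjusted p-values of 0.21 to 0.95, at 71.5 normalised reads or fewer in every library. Of the 29 tested genes that process the receptor or form its nuclear complex, 3 were called higher and 2 lower, 17.2% beside 15.2% over all genes. They include MFNG, a fringe enzyme that adds sugar to the receptor (0.23 ± 0.05, adjusted p = 0.0037), FURIN, the protease of its first cleavage (0.28 ± 0.07, adjusted p = 0.0093), MAML2, a Mastermind coactivator (-0.59 ± 0.18, adjusted p = 0.028) and NUMB, an inhibitor of NOTCH (-0.19 ± 0.06, adjusted p = 0.029). FURIN lost its call without 2 of the 6 libraries, each left out in turn, MAML2 without 4 and NUMB without 5 (adjusted p up to 0.18). RBPJ, the DNA-binding partner, differed by 0.03 ± 0.05 and was not called.

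Of 16 genes for turnover of the receptor 2 were called (12.5% beside 15.2% over all genes), KLHL14 lower and CDK8 higher. KLHL14, a relative of KLHL6, had 155, 156 and 131 normalised reads in S2156A tumours and 222, 225 and 235 in WT tumours. Its libraries did not overlap (-0.62 ± 0.12, adjusted p = 0.00034). CDK8, a kinase that phosphorylates the NOTCH intracellular domain, had 312, 347 and 345 in S2156A tumours and 228, 244 and 248 in WT tumours (0.48 ± 0.10, adjusted p = 0.00077), and it lies in a run of neighbouring genes on chromosome 13 that rose together, described below. FBXW7, the F-box protein known to bind the PEST region of NOTCH, differed by -0.01 ± 0.05 and CUL3, the cullin that KLHL6 uses, by -0.02 ± 0.05, and neither was called.

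The canonical NOTCH targets gave no higher call. Of 18 listed genes 11 were tested, 4 fell and 0 rose in limma (36.4% called beside 15.2% over all genes). The median log2 change was -0.10 beside -0.004 over all genes. No member was higher at an unadjusted p under 0.05 either, edgeR gave 4 lower and 0 higher, and DESeq2 2 lower and 0 higher. HEY2, a repressor of the HEY family, had 90.5, 112 and 102 normalised reads in S2156A tumours and 176, 182 and 172 in WT tumours. HES6, a HES relative that counteracts HES1, had 384, 372 and 406 in S2156A tumours and 486, 459 and 485 in WT tumours. In both genes every S2156A library lay below every WT library, with changes of -0.79 ± 0.14 for HEY2 (adjusted p = 0.0002) and -0.30 ± 0.07 for HES6 (adjusted p = 0.0052). NRARP, a feedback inhibitor induced by NOTCH, had 31.6, 37.3 and 47.5 in S2156A tumours and 54.7, 64.0 and 58.3 in WT tumours. CCND1, cyclin D1, had 7.36, 15.3 and 12.7 in S2156A tumours and 30.3, 12.97 and 30.1 in WT tumours. NRARP did not overlap between groups and CCND1 did, through WT replicate 2. The calls of both (NRARP -0.60 ± 0.20, adjusted p = 0.042, and CCND1 -0.90 ± 0.30, adjusted p = 0.041) were lost without any of 5 and any of 4 of the 6 libraries, at adjusted p up to 0.2 and 0.23.

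HES1, the HES repressor most often read as a measure of NOTCH activity, had 474, 463 and 490 normalised reads in S2156A tumours and 449, 549 and 460 in WT tumours. The groups overlapped, with a difference of -0.02 ± 0.08 (adjusted p = 0.9). DTX1, a ubiquitin ligase of the pathway, differed by 0.08 ± 0.05 (adjusted p = 0.32) and MYC by 0.10 ± 0.12 (adjusted p = 0.64). HES7, HEY1, CDKN1A and PTCRA were not called either.

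The promoters of HES1 and HEY2 are shown because both genes are direct NOTCH targets and only HEY2 was called. Both windows hold the RBPJ motif TGGGAA at 2 places, searched on both strands without overlap and set in capitals, where TTCCCA is the same motif on the other strand. The windows run from 250 bases before to 50 after the annotated start (RefSeq, GRCh38.p14, plus strand). The motif stands in 24.0% of all 35116 promoters of the same table, in 21.6% of 9883 promoters of tested genes, in 17.9% of 778 promoters of genes called higher and in 20.6% of 942 promoters of genes called lower. Of the tested canonical targets 7 matched the table, and 2 of those hold it. Of the tested genes reported to respond to NOTCH in B-cell lymphoma, described next, 15 matched and 1 holds it (6.67%). A match describes these letters and is not a binding site.
HES1 promoter (chr3:194135898-194136197): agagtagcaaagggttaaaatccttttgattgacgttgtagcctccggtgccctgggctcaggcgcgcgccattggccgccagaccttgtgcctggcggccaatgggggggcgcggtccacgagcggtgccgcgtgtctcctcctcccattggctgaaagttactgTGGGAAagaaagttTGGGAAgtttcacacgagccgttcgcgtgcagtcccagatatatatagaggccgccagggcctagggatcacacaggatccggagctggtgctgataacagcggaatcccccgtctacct
HEY2 promoter (chr6:125749382-125749681): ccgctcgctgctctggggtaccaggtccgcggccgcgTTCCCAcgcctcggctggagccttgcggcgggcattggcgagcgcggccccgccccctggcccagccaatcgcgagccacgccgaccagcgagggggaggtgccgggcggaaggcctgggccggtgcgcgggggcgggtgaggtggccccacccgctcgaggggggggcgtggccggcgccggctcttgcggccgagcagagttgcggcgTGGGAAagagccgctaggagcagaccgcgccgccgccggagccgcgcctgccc

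Genes reported to respond to NOTCH in B-cell lymphoma moved in both directions. Of 17 tested members, 3 rose and 2 fell (29.4% beside 15.2% over all genes), at a median log2 change of 0.10 beside -0.004. IL6R, the receptor of interleukin 6, had 69.4, 65.9 and 62.3 normalised reads in S2156A tumours and 201, 159 and 208 in WT tumours, the largest change of the list (-1.49 ± 0.15, adjusted p = 4.1e-08). CD1C, a lipid-presenting molecule, fell by 0.53 ± 0.16 (adjusted p = 0.023). IL2RA, the alpha chain of the interleukin 2 receptor, had 423, 394 and 379 in S2156A tumours and 208, 234 and 218 in WT tumours. IL10RA, a chain of the interleukin 10 receptor, had 3483, 3718 and 3626 in S2156A tumours and 2673, 2904 and 2764 in WT tumours. CR2, the complement receptor CD21 of mature B cells, had 365, 402 and 362 in S2156A tumours and 299, 272 and 265 in WT tumours. In all 3 the S2156A libraries stood above the WT libraries, with changes of 0.85 ± 0.24 for IL2RA (adjusted p = 0.035), 0.38 ± 0.06 for IL10RA (adjusted p = 7.5e-05) and 0.43 ± 0.08 for CR2 (adjusted p = 0.00055). IL2RA lost its call without any of the 6 libraries and CD1C without any of 5, at adjusted p of up to 0.11 each.

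**Figure D1:**
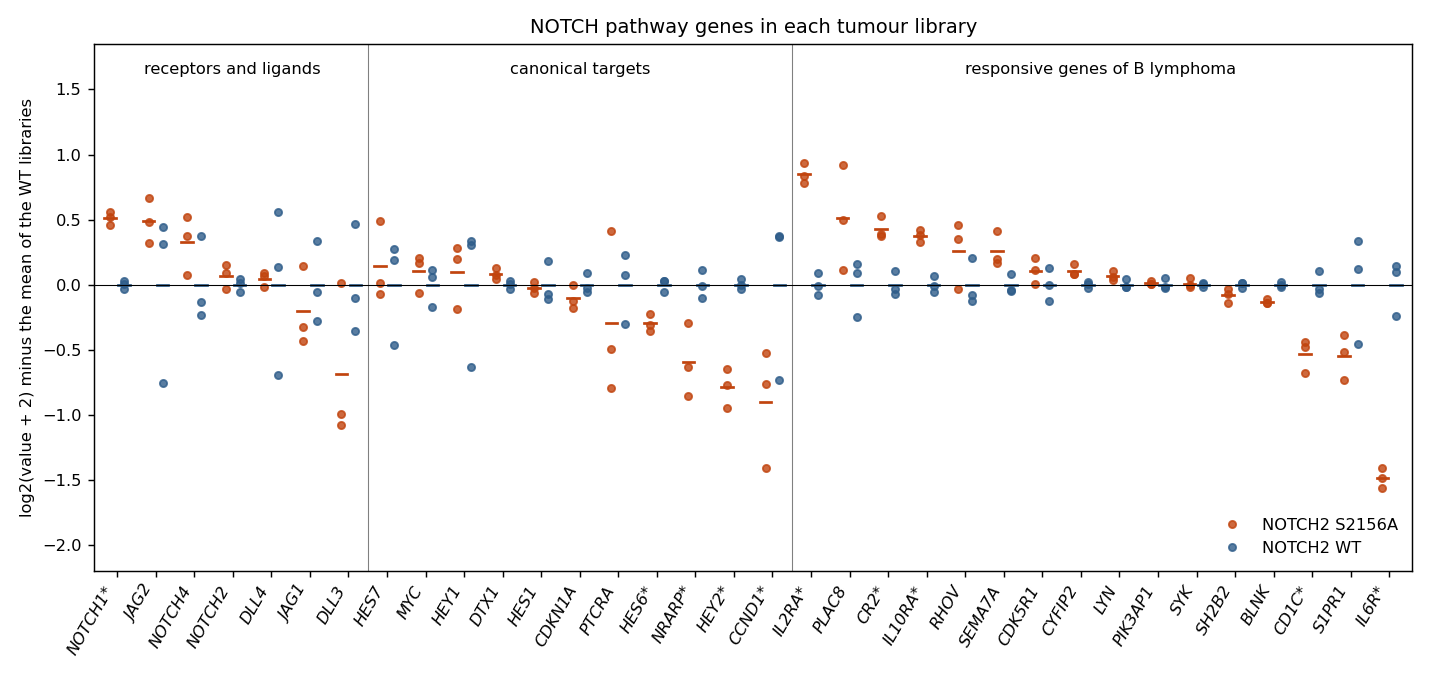
Each point is the log2(value + 2) of a gene in 1 library minus the mean of the 3 WT libraries, with S2156A libraries in red left of WT libraries in blue, bars at group means, and an asterisk at an adjusted p under 0.05 in limma. NOTCH2 and HES1 overlap between groups, NOTCH1 and IL2RA lie higher and IL6R and HEY2 lower in all 3 S2156A libraries.

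Across the transcriptome, falls in S2156A tumours reached further than rises. Of the 2333 called genes, 118 were higher and 209 lower by at least 2-fold (0.769% and 1.36% of tested genes), and 2 were higher and 72 lower by at least 4-fold (2 on the log2 scale). The higher calls numbered 713 without S2156A replicate 3 and 717 without WT replicate 3. The median size of a called change was 0.41. Libraries of the 2 groups did not overlap for 2318 of the 2333 called genes, and they did not overlap for 37.6% of all tested genes. Protein-coding genes made up most calls, with 981 higher and 1137 lower of 11837 tested.

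The largest falls with a WT mean of at least 30 were in genes that had 33.7 normalised reads or fewer in every S2156A library. MPDZ, a scaffold protein with many PDZ domains, had 5.26, 10.51 and 7.39 normalised reads in S2156A tumours and 216, 195 and 224 in WT tumours (-4.49 ± 0.43, adjusted p = 1.2e-05). LIN28B, an RNA-binding protein that blocks let-7 maturation, had 30.5, 28.7 and 25.3 in S2156A tumours and 412, 319 and 445 in WT tumours (-3.70 ± 0.16, adjusted p = 8.1e-12). YIPF6, a Golgi membrane protein, had 33.7, 28.7 and 21.1 in S2156A tumours and 405, 360 and 384 in WT tumours (-3.71 ± 0.32, adjusted p = 3.7e-05). In each of these genes the 3 S2156A libraries were far below the lowest WT library, and the rule that picked them required no overlap. GPHN, gephyrin, a scaffold of inhibitory synapses that also makes molybdenum cofactor, had 12.6, 13.4 and 5.28 in S2156A tumours and 153, 139 and 162 in WT tumours (-3.70 ± 0.26). ALDH4A1, a mitochondrial enzyme of proline breakdown, had 3.16, 0 and 4.22 in S2156A tumours and 60.6, 57.1 and 79.9 in WT tumours (-4.07 ± 0.35). HHIP, a decoy receptor of Hedgehog ligands, had 1.05, 6.69 and 0 in S2156A tumours and 66.5, 51.0 and 58.3 in WT tumours (-4.00 ± 0.41). These values rest on few reads in S2156A tumours, and the pseudocount of 2 makes such falls smaller than the ratio of the values.

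ADGRG6, an adhesion G-protein-coupled receptor, fell with a wider error than the others (-4.32 ± 0.75, adjusted p = 0.0044). This error also carries the spread of the truncation groups in the fit. When only the 6 libraries compared were fitted, the change was the same and the adjusted p was 2.8e-18 (limma). RUNX1T1, a corepressor known from a leukaemia fusion, BEX4, PPP1R3A, a glycogen-targeting subunit of protein phosphatase 1, RIBC2 and the pseudogene DPY19L2P1 fell by 3.42 to 3.98 on the log2 scale. DPY19L2P1 shares sequence with DPY19L2 and its relatives, so its reads may be split between copies.

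The rises were smaller than the falls. KSR1, a scaffold of the RAF, MEK and ERK kinases, had 342, 362 and 328 normalised reads in S2156A tumours and 91.8, 100.3 and 116 in WT tumours (1.73 ± 0.12, adjusted p = 1.6e-10). CELF2, a regulator of splicing in lymphocytes, had 562, 577 and 535 in S2156A tumours and 184, 122 and 190 in WT tumours (1.77 ± 0.16, adjusted p = 3.6e-06). ERBB3, a receptor of neuregulins, had 48.4, 48.7 and 57.0045 in S2156A tumours and 8.42, 12.97 and 13.2 in WT tumours (2.00 ± 0.24, adjusted p = 9.4e-07). The rule that picked these genes required that libraries of the 2 groups did not overlap. ATF7IP2 had 252, 265 and 250 in S2156A tumours and 80.9, 74.3 and 78.1 in WT tumours (1.69 ± 0.14). LGALS9, galectin 9, had 31.6, 38.2 and 32.7 in S2156A tumours and 5.05, 14.7 and 7.52 in WT tumours (1.79 ± 0.28). C14orf132, FAM160A1, SLC7A2, a transporter of cationic amino acids, MAGEB2, a cancer-testis antigen, EXPH5, MGAT4A, an enzyme that branches N-glycans, and RP11-493L12.3 rose by 1.69 to 2.35 on the log2 scale.

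**Figure D2:**
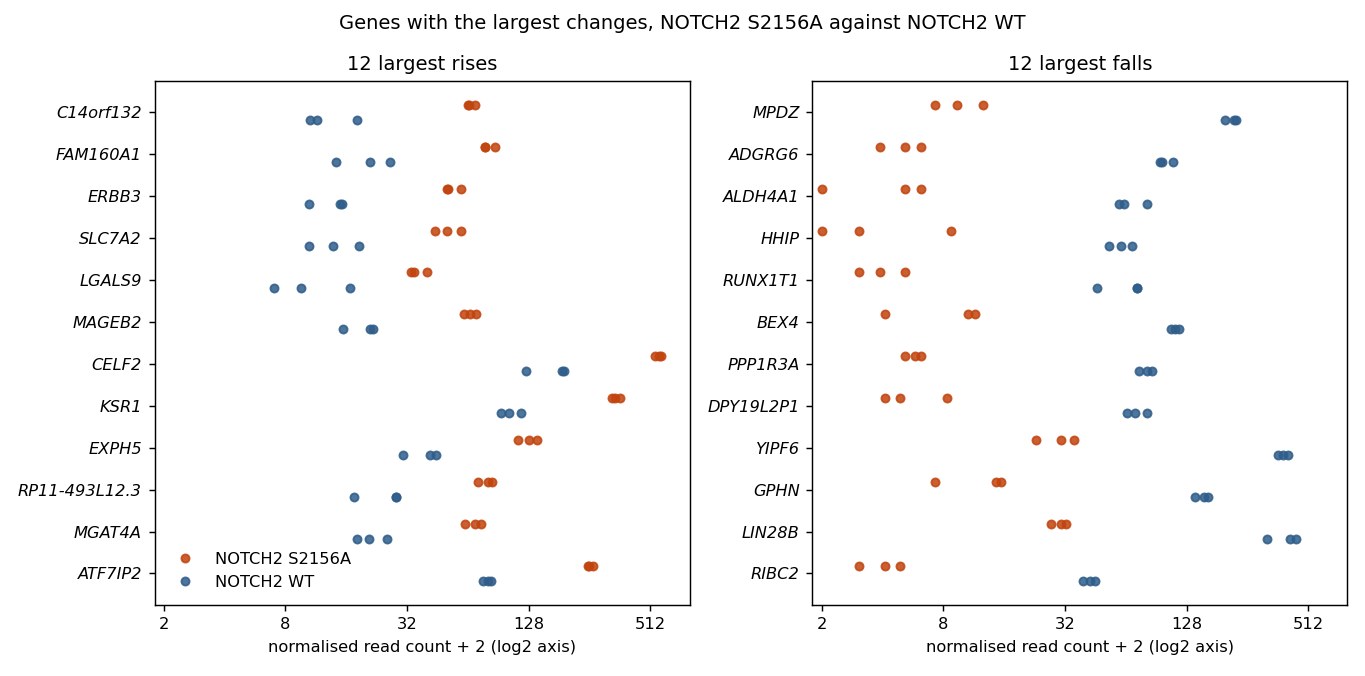
Points are normalised read counts + 2 in single libraries on a log2 axis, with S2156A libraries in red above WT libraries in blue, for the 12 largest rises (left) and 12 largest falls (right) among called genes without overlap and with a mean of at least 30 in the higher group. In the falls the S2156A libraries lie at 33.7 normalised reads or fewer.

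Of 24 tested genes of drug transport, detoxification and drug targets, 2 were called higher and 7 lower, 37.5% beside 15.2% over all genes, a difference with no test of its own. ABCB1, the efflux pump known as P-glycoprotein, for which doxorubicin and vincristine are substrates, had 16.8, 16.2 and 19.0 normalised reads in S2156A tumours and 110, 91.6 and 139 in WT tumours. Every S2156A library was far below the lowest WT library, a change of -2.56 ± 0.21 (adjusted p = 3.5e-09). NR3C1, the glucocorticoid receptor through which prednisone acts, fell by 0.30 ± 0.05 (adjusted p = 0.00021). ABCA1, a cholesterol exporter, had 654, 667 and 691 in S2156A tumours and 409, 386 and 424 in WT tumours (0.72 ± 0.08, adjusted p = 3.8e-07), and ABCC5, another exporter of the ABC family, rose by 0.33 ± 0.06.

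Genes of cell death moved in both directions. In the BCL2 family 4 rose and 1 fell of 16 tested (31.2% called), and among p53 targets 4 rose and 2 fell of 23 (26.1%), beside 15.2% over all genes. BBC3 (PUMA), a BH3-only killer protein and p53 target, had 603, 611 and 585 normalised reads in S2156A tumours and 371, 457 and 357 in WT tumours (0.61 ± 0.11, adjusted p = 0.00035). PMAIP1 (NOXA), a further BH3-only protein, had 45590, 44590 and 43966 in S2156A tumours and 36274, 38640 and 35174 in WT tumours (0.29 ± 0.06, adjusted p = 0.003). Neither gene overlapped between groups, and PMAIP1 was no longer called without the filter on low values (adjusted p = 0.074). BID rose by 0.21 ± 0.06 and TNFRSF10B, a death receptor of TRAIL, by 0.36 ± 0.05. BCL2L1, which encodes the survival protein BCL-XL, fell by 0.30 ± 0.08 (adjusted p = 0.0096). BID lost its call without 5 of the 6 libraries and BCL2L1 without 2 (adjusted p up to 0.11 and 0.075). CDKN1A (p21), a p53 target also read for NOTCH, had 1068, 1206 and 1108 in S2156A tumours and 1162, 1285 and 1184 in WT tumours, overlapping groups, and was not called.

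B-cell genes moved in both directions. In B-cell receptor signalling 5 rose and 2 fell of 27 tested (25.9% beside 15.2% over all genes). PLCG2, the phospholipase below the receptor, had 10345, 10497 and 10610 normalised reads in S2156A tumours and 8101, 8015 and 8250 in WT tumours (0.37 ± 0.04, adjusted p = 5.5e-07), and CD79A, a signalling chain of the receptor, rose by 0.27 ± 0.05 and CD22, an inhibitory receptor, by 0.28 ± 0.05. SYK and LYN, kinases next to the receptor, differed by 0.01 ± 0.05 and 0.07 ± 0.05 and were not called. Among 19 germinal centre genes 3 rose and 3 fell (31.6%). LMO2, a germinal centre transcription cofactor, had 521, 531 and 519 in S2156A tumours and 258, 254 and 299 in WT tumours (0.95 ± 0.10, adjusted p = 1.3e-07), and BCL6, the repressor that sets the germinal centre programme, rose by 0.21 ± 0.05. SERPINA9, a germinal centre serpin, fell by 0.30 ± 0.06. Of 22 B-cell identity genes 2 rose and 3 fell (22.7%), with PAX5, the B-cell master regulator, at -0.27 ± 0.06, POU2F2 (OCT2) at -0.30 ± 0.07 and TNFRSF13B (TACI) at 0.27 ± 0.07. TNFRSF13B was no longer called without 3 of the 6 libraries (adjusted p up to 0.058), nor POU2F2 without the filter on low values (adjusted p = 0.089).

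Plasma cell genes gave 3 lower calls and 0 higher of 19 tested in limma, edgeR and DESeq2 alike, and 0 higher at an unadjusted p under 0.05. The called share was 15.8%, beside 15.2% over all genes in either direction and 8.06% called lower. IRF4, a factor of activated and plasma cells, had 4921, 4864 and 4878 normalised reads in S2156A tumours and 6240, 6250 and 6132 in WT tumours (-0.34 ± 0.05, adjusted p = 1.9e-05). CREB3L2, a factor of secretion, fell by 0.41 ± 0.06 and ELL2, an elongation factor of antibody secretion, by 0.24 ± 0.07. In the NF-kB list 2 rose and 2 fell of 28, 14.3% beside 15.2% over all genes. TNFAIP3 (A20), a feedback inhibitor, fell by 0.44 ± 0.07 along with IRF4, and CD83, an activation marker, rose by 0.31 ± 0.06 along with BCL3, an atypical IkB protein, at 0.22 ± 0.07. ELL2 and BCL3 each lost the call without 4 of the 6 libraries (adjusted p up to 0.097 and 0.1).

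Surface and adhesion genes were called higher in 5 and lower in 3 of 22 tested (36.4% beside 15.2% over all genes). SPN (CD43), a large sialoglycoprotein, had 477, 442 and 434 normalised reads in S2156A tumours and 183, 250 and 184 in WT tumours (1.14 ± 0.11, adjusted p = 1.9e-07). CXCR5, the receptor that guides B cells to follicles, had 1157, 1209 and 1119 in S2156A tumours and 854, 847 and 811 in WT tumours (0.47 ± 0.06, adjusted p = 9.1e-07). ITGB2, the integrin beta chain of LFA-1, had 389, 439 and 407 in S2156A tumours and 254, 281 and 215 in WT tumours (0.72 ± 0.13, adjusted p = 0.0006). All 3 were without overlap. PECAM1 (CD31) fell, with 24.2, 30.6 and 30.6 in S2156A tumours and 68.2, 76.9 and 57.4 in WT tumours (-1.19 ± 0.18). Of 21 chemokines and cytokines, 3 rose and 1 fell (19.0%). CXCL16 rose by 0.80 ± 0.17, LTB (lymphotoxin beta) by 0.71 ± 0.21 and TNFSF10 (TRAIL) by 0.42 ± 0.10, and CSF1, the macrophage growth factor, fell by 1.12 ± 0.24. LTB lost its call without 5 of the 6 libraries (adjusted p up to 0.14).

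Interferon-response genes split, 3 higher and 4 lower of 24 (29.2% beside 15.2% over all genes). MX1, an antiviral GTPase, had 81.0, 66.9 and 80.2 normalised reads in S2156A tumours and 293, 219 and 264 in WT tumours (-1.74 ± 0.33, adjusted p = 0.0073), while its neighbour MX2 fell by 0.35 ± 0.07 and BST2 (tetherin) by 0.52 ± 0.08. IFIT2, another interferon-induced gene, went the other way, with 32.6, 28.7 and 39.1 in S2156A tumours and 17.7, 15.6 and 15.05 in WT tumours (0.96 ± 0.24, adjusted p = 0.0054). Of 24 genes of unfolded protein and amino acid stress, 3 rose and 3 fell, with VLDLR, a lipoprotein receptor, at 163, 150 and 162 in S2156A tumours and 61.5, 84.7 and 57.4 in WT tumours (1.22 ± 0.16, adjusted p = 3.4e-06) and HERPUD1, PDIA4 and HSP90B1, genes of protein folding and quality control in the endoplasmic reticulum, lower by 0.15 to 0.22 on the log2 scale. PDIA4 and HSP90B1 were no longer called without 4 and 5 of the 6 libraries (adjusted p up to 0.12 and 0.17).

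Of 26 mitotic genes 7 were called lower and 0 higher (0 higher also at an unadjusted p under 0.05, in edgeR and in DESeq2). These 7 were 26.9% of the list beside 15.2% called over all genes, and the median of the list was -0.06. The 3 with the largest changes among those named lie in the runs of neighbouring genes described below. CCNA2, cyclin A2, had 1494, 1563 and 1492 normalised reads in S2156A tumours and 2422, 2543 and 2452 in WT tumours (-0.70 ± 0.06, adjusted p = 4.2e-09). MAD2L1, a spindle checkpoint protein, fell by 0.47 ± 0.06 and CENPF, a kinetochore protein, by 0.43 ± 0.05. Outside those runs 4 mitotic genes were called lower, CDC20, the activator of the anaphase-promoting complex, among them at -0.23 ± 0.06. G1/S and replication genes gave 2 higher and 0 lower of 26 (2 lower at an unadjusted p under 0.05, 0 in edgeR and DESeq2), CDC45 at 0.35 ± 0.06 and CCNE1 (cyclin E1) at 0.25 ± 0.07. CDC20 lost its call without S2156A replicate 1 (adjusted p = 0.057), and CCNE1 without 3 of the 6 libraries (adjusted p up to 0.12). Ribosome biogenesis genes and MYC partners gave 4 higher and 1 lower of 35, cytosolic ribosomal proteins 2 higher of 42 (RPS19 at 0.41 ± 0.04 and RPLP0 at 0.43 ± 0.05, both with many processed pseudogenes that can share reads), and mitochondrially encoded genes 1 lower of 13 (MT-ND4 at -0.30 ± 0.07, adjusted p = 0.055 without WT replicate 2).

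Among the remaining lists, immediate-early genes were called in a larger share than the 15.2% over all genes. The called share was smaller in sterol synthesis (9.09%), hypoxia and glycolysis (3.85%), MHC class I (13.3%) and MHC class II (6.67%). Immediate-early genes gave 2 higher (CD69 at 0.67 ± 0.18) and 3 lower of 25, of which BTG2 (-0.33 ± 0.05) and IER5 (-0.39 ± 0.07) lie in a run on chromosome 1. Sterol synthesis gave 2 higher and 0 lower of 22 (2 higher and 4 lower at an unadjusted p under 0.05). DHCR7, the enzyme of its last step, rose by 0.26 ± 0.08. Hypoxia and glycolysis gave 1 higher of 26, NDRG1 at 0.63 ± 0.17, MHC class I 2 higher of 15, HLA-E at 0.34 ± 0.07 and NLRC5 at 0.20 ± 0.06, and MHC class II 1 lower of 15, HLA-DPA1 at -0.25 ± 0.08. All genes named in these lists except BTG2, IER5 and HLA-E lost the call without at least 2 of the 6 libraries (adjusted p up to 0.12).

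**Figure D3:**
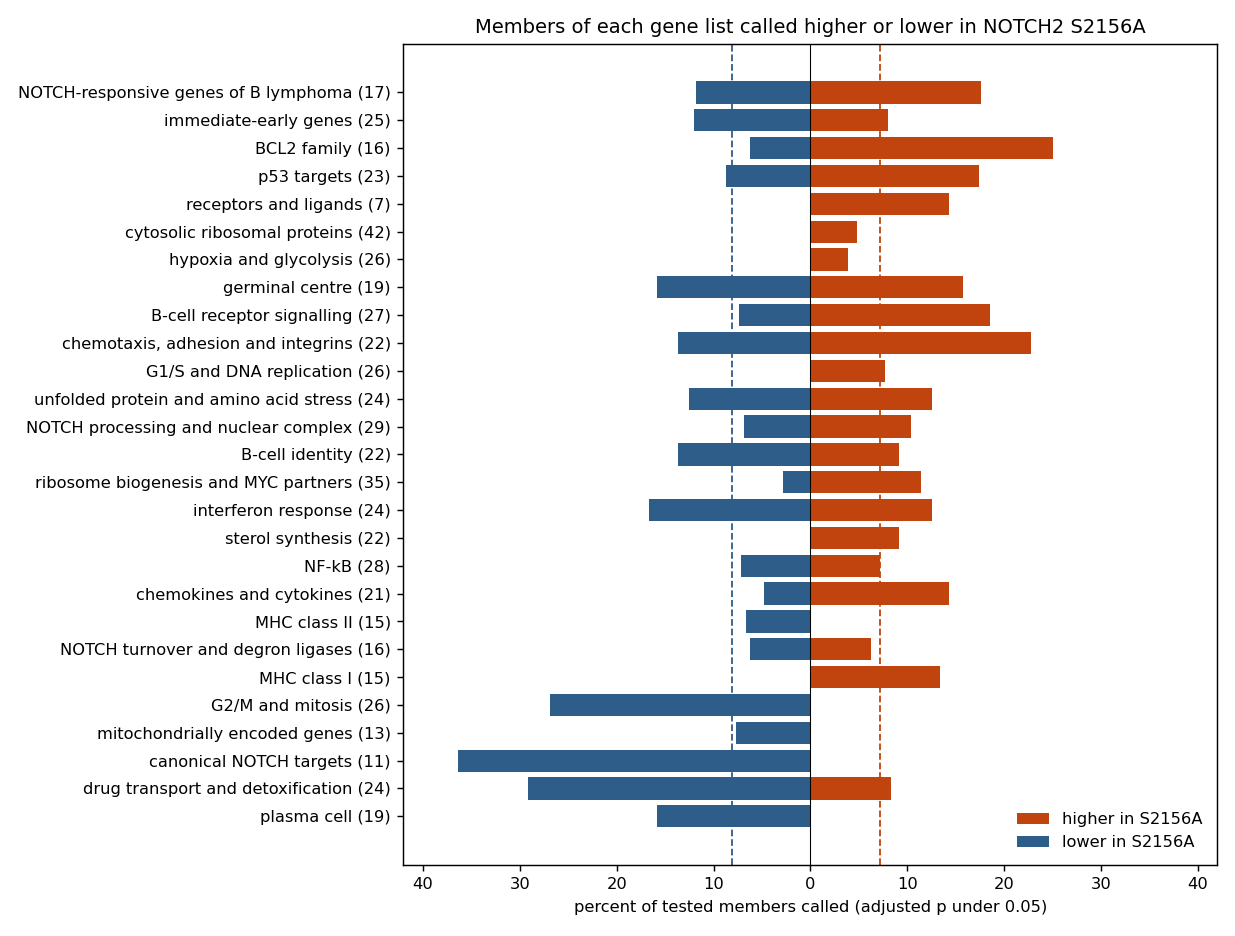
Bars give the percent of tested members (number in brackets) called higher, to the right, or lower, to the left, in S2156A tumours, and dashed lines give the same over all tested genes (7.14% higher and 8.06% lower). Canonical NOTCH targets, mitotic genes, plasma cell genes, MHC class II genes and mitochondrially encoded genes have lower calls and no higher calls.

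Changes also followed position along chromosomes. The running median of the log2 change over 41 neighbouring genes left ±0.15 for at least 10 genes in 4 runs, a rule set after the values were seen, so the counts in the runs are a description. The largest run covers chr1:180154834-248919946, from QSOX1 to PGBD2, where 178 genes were called lower and 6 higher of 277 tested, at a median of -0.33. NOTCH2 itself lies outside it on the same chromosome. On chromosome 4 the run at 109688622 to 139045939 held 34 lower and 1 higher of 53 (median -0.55). On chromosome 13 the run at 19304593 to 27273690 held 21 higher and 0 lower of 37 (median 0.36), and the run at 64958097 to 114337626 held 55 lower and 3 higher of 100 (median -0.32). Positions are from GENCODE 29 on GRCh38.

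Together the runs held 3.51% of the 13310 tested genes with a position, but 22.5% of the lower calls (267 of 1186) and 3.03% of the higher calls (31 of 1023). CR2 rose although it lies in the chromosome 1 run, where most genes were lower. Outside the runs 1065 genes were higher and 970 lower, against 1096 and 1237 in all. The 3 S2156A libraries were alike in each run, with medians of -0.34 to -0.33 on chromosome 1, -0.57 to -0.50 on chromosome 4, 0.33 to 0.40 near the start of chromosome 13 and -0.32 to -0.30 at its distal end. The WT libraries ranged from -0.01 to 0.01 in every run. DNA was not measured, so copy number and RNA per copy cannot be told apart.

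**Figure D4:**
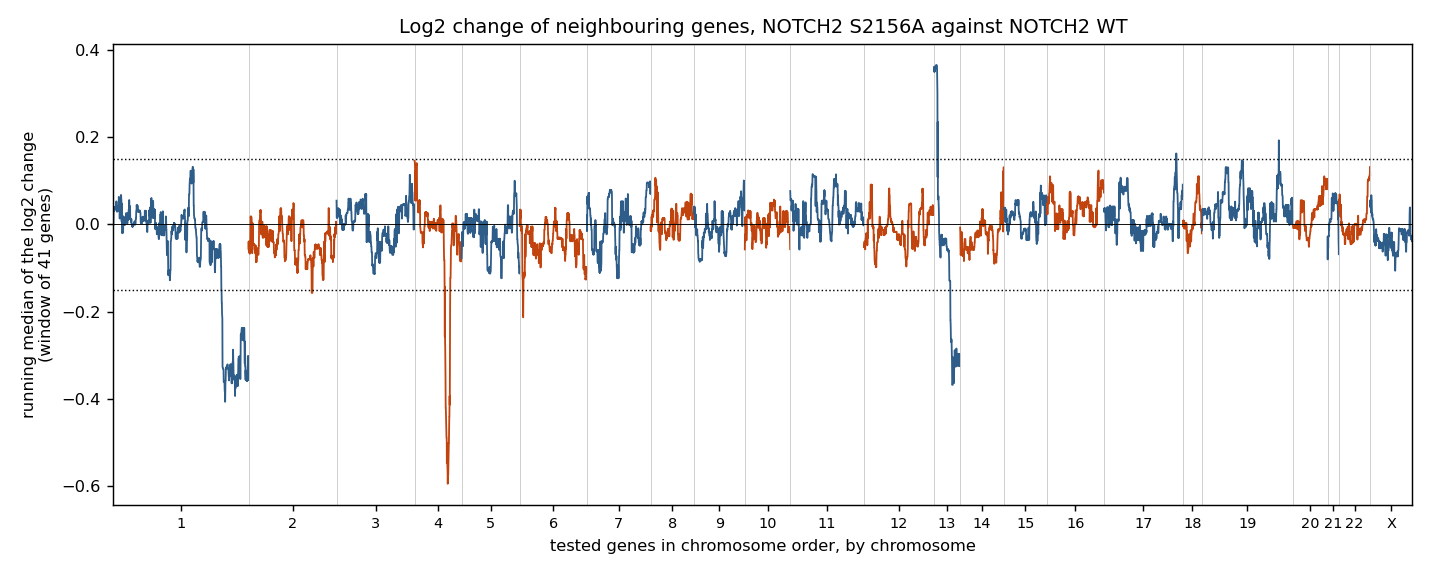
The line is the running median over 41 tested genes of the log2 change of S2156A against WT, with genes in chromosome order and colours alternating between chromosomes, and dotted lines at ±0.15. It leaves the dotted lines for long runs at the end of chromosome 1, within chromosome 4 and at both ends of chromosome 13.

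R2400* tumours lay on the same side of WT as S2156A tumours in these runs. Their libraries lay at -0.25 to -0.17 on chromosome 1, -0.48 to -0.32 on chromosome 4, 0.29 to 0.39 near the start of chromosome 13 and -0.24 to -0.15 at its distal end, as medians against the WT mean. Q2140* libraries lay closer to WT, at -0.12 to -0.04, -0.07 to -0.03, 0.16 to 0.26 and -0.13 to -0.001 in the same order. These groups share the WT libraries with the S2156A comparison. Tested directly against Q2140*, 146 genes of the chromosome 1 run were lower and 18 higher in S2156A tumours, and against R2400* 33 were lower and 4 higher.

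**Figure D5:**
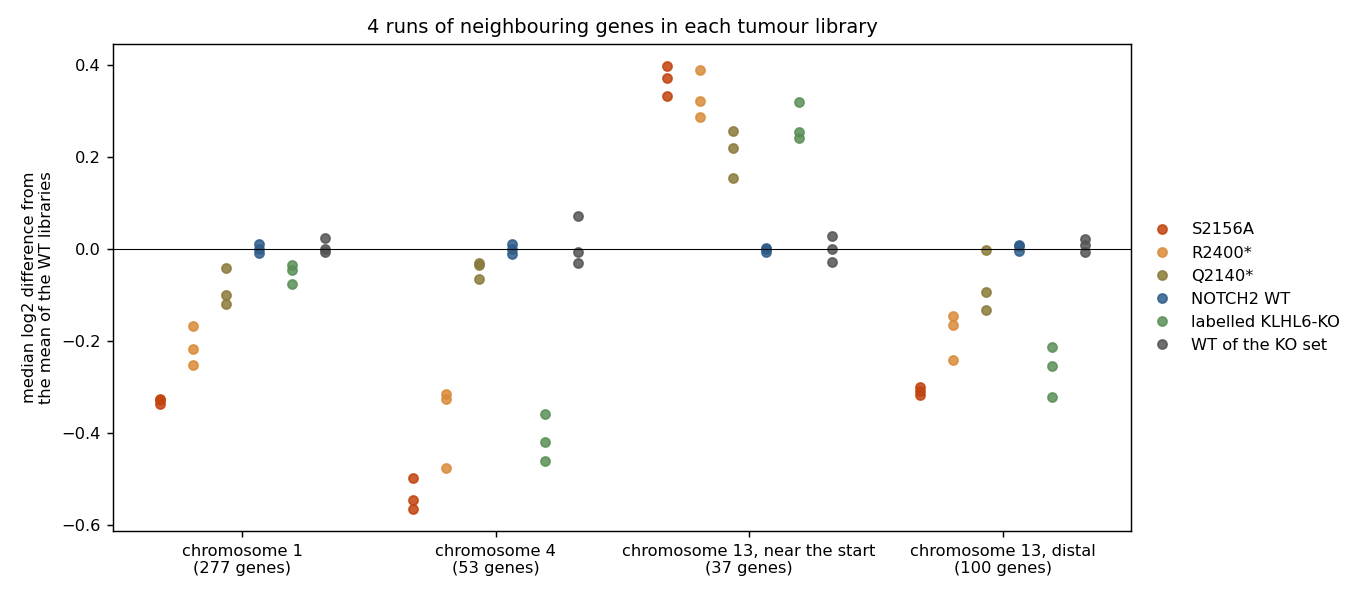
Each point is the median log2 difference of 1 library from the mean of the WT libraries of its experiment, over the genes of each run. S2156A libraries lie furthest from WT in the runs on chromosomes 1 and 4, and the tumours labelled KLHL6-KO, which have WT libraries of their own, do not overlap them in any of the 4 runs and lie nearest to them on chromosome 1.

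The truncated receptors differed from S2156A in NOTCH2 RNA itself. It stood at 15505 to 17569 normalised reads in S2156A tumours, 23923 to 29381 in R2400* tumours and 55163 to 63457 in Q2140* tumours, with no overlap between these 3 groups (S2156A minus R2400* -0.67 ± 0.07, adjusted p = 3.9e-05, and minus Q2140* -1.84 ± 0.07, adjusted p = 4.1e-11). Against R2400*, 731 genes (4.76%) were called, 296 higher (1.93%) and 435 lower (2.83%) in S2156A tumours. This count rests on single libraries. It was 255 without R2400* replicate 1, 257, 292 and 304 without S2156A replicates 2, 3 and 1, and 1052 without R2400* replicate 2, which stands apart on the first principal component (16.2, against 0.594 and 1.48 for the other R2400* libraries). Against Q2140*, 4708 genes (30.7%) were called, 2338 higher (15.2%) and 2370 lower (15.4%).

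Some of the genes described against WT also differed from both truncations, in contrasts that share the S2156A libraries. KSR1 had 342, 362 and 328 normalised reads in S2156A tumours, 165 to 194 in R2400* tumours, 83.0 to 114 in Q2140* tumours and 91.8 to 116 in WT tumours, above all others (adjusted p = 3.5e-05 against R2400* and 2.4e-11 against Q2140*). IL10RA and NOTCH1 were higher against all 3 groups too, by 0.36 ± 0.06 and 0.32 ± 0.08 against R2400* and by 0.44 ± 0.06 and 0.50 ± 0.08 against Q2140*. LIN28B (25.3 to 30.5 in S2156A tumours, 123 to 195 in R2400* tumours and 349 to 492 in Q2140* tumours) and ABCB1 (16.2 to 19.0 in S2156A tumours, 29.1 to 64.6 in R2400* tumours and 139 to 158 in Q2140* tumours) were lower against all 3, ABCB1 at adjusted p = 0.00069 against R2400* and 1.8e-10 against Q2140*.

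HEY2 was not called against either truncation. It was at 90.5 to 112 in S2156A tumours, 89.7 to 133 in R2400* tumours and 98.7 to 133 in Q2140* tumours, with differences of -0.16 ± 0.14 and -0.13 ± 0.14 (adjusted p = 0.61 and 0.55). IRF4 was not called either, at -0.01 ± 0.05 against R2400* and 0.09 ± 0.05 against Q2140* (adjusted p = 0.94 and 0.19). SPN was at 434 to 477 in S2156A tumours, 483 to 614 in R2400* tumours and 253 to 312 in Q2140* tumours, not called against R2400* (-0.24 ± 0.11, adjusted p = 0.26) and higher than in Q2140* tumours (0.66 ± 0.11, adjusted p = 0.00011). CENPF differed from R2400* by -0.01 ± 0.05 (adjusted p = 0.93) and was lower than in Q2140* tumours (-0.14 ± 0.05, adjusted p = 0.022). IL2RA was higher than in Q2140* tumours by 1.82 ± 0.24 (adjusted p = 0.00019), with 379 to 423 normalised reads in S2156A tumours and 80.1 to 161 in Q2140* tumours.

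A further tumour experiment with its own WT libraries set KLHL6-KO xenografts of U2932 against WT xenografts, also in NSG mice under CHOP. KLHL6 RNA was higher in the libraries labelled KLHL6-KO (0.59 ± 0.15, adjusted p = 0.013), so gene totals do not check that label. WT replicate 1 stands apart from the other WT libraries (chi-square over degrees of freedom 30.4 and 33.7, against 2.77 between the others). NOTCH2 RNA stood at 447, 492 and 458 normalised reads in tumours labelled KLHL6-KO and at 420, 850 and 909 in their WT tumours. The NOTCH2 difference was not called (-0.56 ± 0.21, adjusted p = 0.08, limma). Without WT replicate 1 NOTCH2 was called lower (-0.915 ± 0.13, adjusted p = 0.000109, limma). Of 14005 genes 2445 (17.5%) were called, 1182 higher (8.44%) and 1263 lower (9.02%). The count was 1416 without KLHL6-KO replicate 1 and 1131 without KLHL6-KO replicate 3, 1373 in edgeR and 1291 in a fit of the 6 libraries alone. Among 13838 genes tested in both experiments, 156 were higher in both, 14.7% of the S2156A calls and 13.2% of the calls in tumours labelled KLHL6-KO, and 86 of the genes higher in S2156A tumours were lower there. For lower calls 239 were shared (21.04% and 19.3%) and 93 went the other way. Without WT replicate 1 these counts were 146 and 127 for higher calls, and 262 and 123 for lower calls.

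Of the 12 largest falls 5 could be tested there, and all 5 were lower, beside 9.02% over all genes. These 5 genes had 11.03 normalised reads or fewer in every library labelled KLHL6-KO. They passed the filter on low values only through other libraries of that set, so the 5 of 5 is no independent support. The 8 testable largest rises held 0 higher calls in limma, beside 8.44% over all genes, and 1 was lower. Of these 8, 1 was higher at an unadjusted p under 0.05, 1 in edgeR and 1 in DESeq2. The gene called lower was FAM160A1. It had 12.7, 15.2 and 10.6 normalised reads in tumours labelled KLHL6-KO and 28.1, 20.2 and 36.2 in their WT tumours (adjusted p = 0.018, limma). YIPF6 had 11.03, 5.91 and 6.84 normalised reads in tumours labelled KLHL6-KO and 110, 145 and 142 in their WT tumours. GPHN had 1.70, 0 and 0.761 in tumours labelled KLHL6-KO and 29.9, 23.4 and 26.2 in their WT tumours. All libraries labelled KLHL6-KO lay below all WT libraries in both genes, at -3.78 ± 0.19 and -3.38 ± 0.26. BEX4 (-3.43 ± 0.36), DPY19L2P1 (-3.65 ± 0.25) and ALDH4A1 (-1.68 ± 0.33) were lower as well, and the 5 calls held without WT replicate 1. ALDH4A1 stood at 9.34 normalised reads or fewer in every library compared, WT tumours included. Canonical NOTCH targets were called in both directions there. HEY2 was lower by 0.60 ± 0.16 (adjusted p = 0.016, limma) and HES6 by 0.61 ± 0.14 (adjusted p = 0.0088). HES1 was higher by 0.45 ± 0.11 (adjusted p = 0.011), MYC by 0.71 ± 0.19 (adjusted p = 0.017) and CDKN1A by 0.64 ± 0.17 (adjusted p = 0.015). ABCB1 was lower by 1.56 ± 0.41 (adjusted p = 0.015, at 12.7 normalised reads or fewer in every library) and SPN higher by 1.00 ± 0.19. ABCA1, higher in S2156A tumours, was lower there by 1.61 ± 0.17, and IL6R, lower in S2156A tumours, was higher there by 1.04 ± 0.26.

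In the runs of neighbouring genes, which were set without these libraries, tumours labelled KLHL6-KO had medians of -0.40 on chromosome 4 (23 lower and 0 higher of 46), 0.30 near the start of chromosome 13 (10 higher and 0 lower of 31), -0.25 at its distal end (30 lower and 1 higher of 90) and -0.06 on chromosome 1 (38 lower and 15 higher of 250). Without WT replicate 1 the medians were -0.38, 0.30, -0.26 and -0.04. All 3 libraries labelled KLHL6-KO lay on the same side of their WT libraries as S2156A libraries of theirs in each run, on chromosome 1 at -0.08 to -0.04 in libraries labelled KLHL6-KO and -0.01 to 0.02 in their WT libraries.

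The tumours expressed the B-cell markers MS4A1, CD79A, CD79B, PAX5, CD22, CD74 and BLK, at sums of 63008 to 65050.1 normalised reads in S2156A tumours and 60733 to 63278 in WT tumours. Markers of other cell types were low. For types that the host supplies, fewer cells and less RNA per cell cannot be told apart in a xenograft. NSG mice lack T and NK cells of their own, and the source of reads of those markers was not tested. Over all genes 15.2% were called. Endothelial markers summed to 197 to 228 in S2156A tumours and 263 to 353 in WT tumours, with PECAM1 and TIE1 called lower of 4 tested and EMCN at 0. T and NK cell markers summed to 660 to 668 in S2156A tumours and 761 to 788 in WT tumours, and CD8A had 32.6, 32.5 and 30.6 in S2156A tumours and 125, 107 and 113 in WT tumours (-1.78 ± 0.15), the only member called of 6 tested, and KLRD1 was at 0. Stroma markers summed to 678 to 713 in S2156A tumours and 602 to 708 in WT tumours, with SPARC higher (0.85 ± 0.21) and DCN lower (-0.89 ± 0.24) of 12 tested. TIE1 lost its call without 5 of the 6 libraries and DCN without 2 (adjusted p up to 0.21 and 0.11). Macrophage and neutrophil markers summed to 375 to 481 in S2156A tumours and 312 to 361 in WT tumours, with S100A8 at 0 and 0 of 7 tested called in limma, edgeR and DESeq2 (2 higher at an unadjusted p under 0.05). Red cell markers summed to 145 to 172 in S2156A tumours and 104 to 145 in WT tumours with AHSP at 0, and adipocyte and muscle markers to 37.3 to 47.3 and 36.7 to 45.5 in S2156A and WT tumours with ADIPOQ at 0, none of 2 and 1 tested genes called in limma, edgeR or DESeq2 or at an unadjusted p under 0.05. Whether reads of mouse cells were removed is not given in the sources used here, and the part of these cells in the changes of PECAM1, CSF1 or CXCL16 was not tested. Mitochondrially encoded genes took 7.53% to 8.28% of reads in S2156A tumours and 7.85% to 8.44% in WT tumours.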

How the data were processed

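Poly(A) RNA was sequenced from directional libraries, per the labels' protocols. The authors used STAR, SAMtools and DESeq2 with GRCh38, per the submitters' processing notes. No version, read counter, annotation or strand setting is given in the sources used here, so reads of overlapping genes may not be separated. Each deposited value is a normalised signal: the count of a gene over the library's size factor. In each mutant library 100% of values were whole multiples of 1 step within 0.02 steps, so whole reads were recovered. Of 34870 rows, 26 named as dates (at most 0.252% of reads) and 1 named 0 were left out. For positions, 24482 names matched GENCODE 29, 9 matched by another symbol, 36 fitted several genes and 10316 none.

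limma 3.58.1 (trend, robust) was fitted on log2(value + 2) over the 12 NOTCH2 tumours for genes with at least 10 in at least 3 libraries, with Benjamini-Hochberg adjustment. The 12 knockout tumours, deposited as a separately normalised set, were fitted alone. Alternatives were edgeR 4.0.16 and DESeq2 1.42.0 on recovered reads, pseudocounts 1 and 8, other filters, TMM scaling, the 6 libraries alone, a replicate block and leaving out each library. The fit was tested on simulated data. Named genes are NOTCH2, KLHL6, members of 3 NOTCH lists, the 12 largest rises and falls (called, without overlap, mean of the higher group at least 30) and up to 4 called members of each other list. RBPJ, FBXW7, CUL3, SYK, LYN, NOTCH2NL, CR2's place in a run and markers at 0 were chosen after their values were seen. Members and lists were chosen with earlier results of these data known. Some genes are not reported here.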

Additional observations from a re-analysis of the deposited data

How the results depend on the processing

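The 2333 genes called in S2156A against WT tumours became 2020 (DESeq2) to 2443 (edgeR) under other pseudocounts, filters, TMM scaling, count tests and a replicate block (2158, with 1004 higher and 1154 lower). They became 3914 (1914 higher, 2000 lower) when only the 6 libraries compared were fitted, which leaves out the spread of the truncation groups, and 1568 to 1903 without 1 library (713 to 915 higher, 840 to 988 lower). Same-numbered S2156A and WT libraries deviated together with r of only -0.00529 to 0.0194 across genes, so the replicate numbers do not pair them. The NOTCH2 difference stayed uncalled, at 0.03 to 0.12 without 1 library. Against R2400* leaving out 1 library gave 255 to 1052 calls, and against Q2140* 3720 to 4498. For tumours labelled KLHL6-KO edgeR gave 1373, TMM scaling 1296, the 6 libraries alone 1291, and leaving out 1 library 1131 to 2776. Of the named genes 108 were called, and 78 of these kept the call without any 1 of the 6 libraries. Calls ended for 14 named genes without a filter on low values, 5 under DESeq2 and 5 under the block, and for 17 to 25 without 1 library. No called gene among them changed direction. Of the genes not called, the sign of HES1 turned without WT replicate 2 (0.07), of HEY1 without WT replicate 3 (-0.22), of HES7 without WT or S2156A replicate 3 (-0.09 and -0.03), of DLL4 in edgeR, DESeq2 and without WT replicate 2 (-0.03, -0.04 and -0.30), and of SYK, within 0.02 of 0, without WT replicate 3 or S2156A replicate 2. Outside the 4 runs of neighbouring genes, a split chosen after seeing the data, 2035 calls were left, and a window of 21 genes gave 18 runs with 629 genes. The cause of these differences was not tested. With 3 libraries a group small changes of low genes can be missed, and neither DNA nor protein was measured.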
